A study of Mus musculus with 8 samples.

Results

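Messenger RNA of control neonatal mouse brain was profiled in 4 libraries of the 8 in the series. They are the 4 columns of the deposited count table whose names mark them as control. The control neonates were C57BL/6 mice born to naturally mated wild-type parents. The sources used here give neither their sex nor their age in days, and the series text speaks of the control source in the singular, as a neonate. No label ties a library to an animal, so the spread between the 4 libraries may be technical as well as biological. The other 4 libraries, from male neonates fathered by males that were themselves born after intracytoplasmic sperm injection, were not compared here. The libraries are called replicates 1 to 4. In the sample codes, replicates 1 and 2 carry the letter A and replicates 3 and 4 the letter D, and the sources used here do not explain the letter.

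The newborn mouse brain is still being built. Most cortical neurons have been born and are extending axons and dendrites, radial glia are turning from making neurons to making astrocytes, and oligodendrocyte precursors have spread while myelin has barely begun to form. Many gene families switch members over this period, among them glutamate and GABA receptor subunits, chloride transporters and RNA-binding proteins, which makes the balance between paralogs (related genes from a shared ancestor) a readout of the stage.

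The library totals were 16551511, 15163420, 15893631 and 13872777 counts in replicates 1 to 4. Values are given in CPM, counts scaled to a library total of 1000000, where 1 count was worth 0.0604 to 0.0721 CPM. Values divided by the exon length are given as CPM per kb, and paralog shares use these. Ranks, list medians, list sums and limits in plain CPM are not corrected for length and favour long transcripts. With 3 counts as the most that a value of 0 allows, a gene without counts in a library could have reached 0.181 to 0.216 CPM there, and this floor covers counting error only. No library was a copy of another: over the 6 pairs, chi-square divided by the number of genes was 2.86 to 7.92, above sampling noise. Replicates 1 and 2 stood apart from replicates 3 and 4 in transcripts of the hindbrain and of posterior Hox genes, described below with and without them. The order alone was common. In 42.6 percent of the 10469 genes of 10 CPM or more, replicates 1 and 2 did not overlap replicates 3 and 4. The Y-linked genes Kdm5d, Eif2s3y, Ddx3y and Uty lay between 41.7 and 70.1 CPM in all 4 libraries, and Xist, the RNA that coats the inactive X chromosome, lay between 0.132 and 0.725 CPM.

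The libraries held transcripts of many genes at moderate levels. At least 1 count was found for 20420, 20261, 20486 and 20129 genes in replicates 1 to 4, a mean of 20324 ± 161 (SD, n = 4), of 32285 genes in the table. The counterpart at 1 CPM or more was 14775 to 14920 genes. Over all 4 libraries 22868 genes had a count and 9417 had none. Of the genes with a count, 50 averaged 1000 CPM or more, 2505 lay between 100 and 1000 CPM, 7914 between 10 and 100 CPM, 4387 between 1 and 10 CPM, 3950 between 0.1 and 1 CPM and 4062 below 0.1 CPM. The 100 most abundant genes of a library took 16.5%, 15.9%, 15.8% and 15.8% of its counts in replicates 1 to 4, a mean of 16.0% ± 0.32 (SD, n = 4). In each library 1230 to 1255 genes were enough to hold 50 percent of the counts, and 6440 to 6476 genes to hold 90 percent. Of the 100 most abundant genes, 94 were shared by all 4 libraries.

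**Figure D1:**
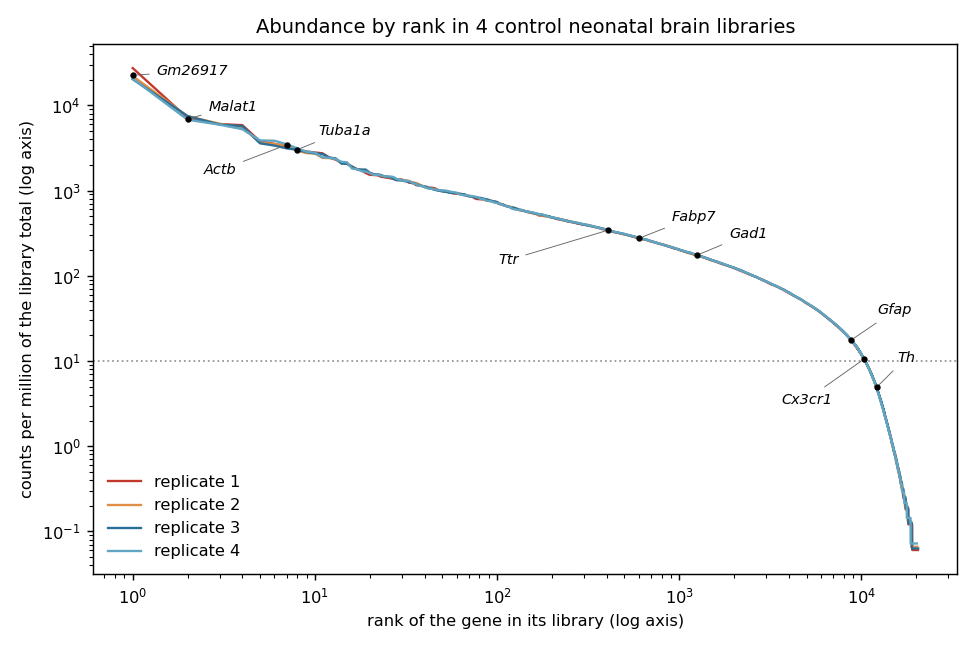
CPM (log axis) against the rank of each gene in its library (log axis), with 1 line for each of the 4 control libraries; black points mark the mean CPM and the rank by mean CPM of named genes, and the dotted line lies at 10 CPM. The 4 lines lie on each other over most ranks and part at the first rank, where Gm26917 reached 27419 CPM in replicate 1 and 20306 to 22077 CPM in the other libraries.

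Protein-coding genes took 94.0% ± 0.35 of the counts, long noncoding genes 5.29% ± 0.34 and the 13 mitochondrially encoded genes 0.747% ± 0.021 (SD, n = 4). The long noncoding share includes Gm26917 and Gm42418, which averaged 22593 ± 3311 and 5903 ± 829 CPM. An annotated ribosomal RNA gene overlaps Gm42418, as described below. The 86 cytosolic ribosomal protein genes took 1.22% ± 0.014 (SD, n = 4). Over 80 ribosomal protein genes, a median of 68.6% of stretches of 76 bases, the read length, occurred in no other annotated transcript. The effect of this sharing on the ribosomal protein share was not tested.

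By counts, the most abundant protein-coding genes included many that build the cytoskeleton of growing axons and dendrites. Map1b, a protein that binds and stabilises microtubules in growing axons, had 5865, 6088, 5960 and 5934 CPM in replicates 1 to 4. Tuba1a, the alpha tubulin of new neurons, had 3010, 2939, 3013 and 3142 CPM, and Actb, cytoplasmic beta actin, had 3538, 3383, 3375 and 3499 CPM. These 3 genes differed by under 1.07-fold between their highest and lowest library. Dpysl3 and Dpysl2, which carry the signal of collapsin in growth cones, averaged 2803 ± 57.9 CPM and 2420 ± 24.4 CPM (SD, n = 4). The microtubule-associated genes Map2 (dendrites) and Mapt (tau, axons) averaged 2361 ± 57.9 CPM and 2112 ± 42.8 CPM, and Dcx, the microtubule-binding doublecortin of migrating neurons, 1763 ± 35.1 CPM. Ncam1, a neural adhesion molecule, averaged 1756 ± 43.3 CPM, and Sox11, a transcription factor of newborn neurons, 1669 ± 113 CPM. The beta tubulins Tubb5 and Tubb2b averaged 2100.2 ± 51.9 CPM and 1878 ± 57.3 CPM. The translation factors Eef1a1, Eef2 and Eif4g2 averaged 2756 ± 24.2, 1581 ± 33.4 and 1527 ± 6.95 CPM. Large scaffold and motor proteins completed the 25 most abundant genes, with Ank2 (ankyrin B) at 1575 ± 55.6 CPM, Macf1 (a linker of actin and microtubules) at 1513 ± 40.5 CPM, Sptan1 (spectrin alpha) at 1459 ± 17.9 CPM and Dync1h1 (the dynein heavy chain) at 1433 ± 47.4 CPM.

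Division by exon length reordered this list, since CPM favours long transcripts. Tuba1a reached 1678 ± 46.9 CPM per kb, Actb 1287 ± 30.7, Eef1a1 1105 ± 9.7, Tubb2b 819 ± 25, Tubb3 748 ± 25 and Tubb5 631 ± 15.6 CPM per kb (SD, n = 4). Nnat, an imprinted gene that encodes a small membrane proteolipid of the developing brain, reached 647 ± 29.4 CPM per kb and ranked 14 of all genes. Map1b, on an exon length of 15846 bases, stood at 376 ± 5.89 CPM per kb and ranked 30. Ank2 and Macf1 ranked 658 and 598 on that scale. Among genes of 10 CPM or more the median was 9.23 CPM per kb.

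Several of the most abundant entries overlap or resemble other annotated RNAs. Gm26917 was the most abundant gene of every library, at 27419, 22077, 20306 and 20569 CPM in replicates 1 to 4, with replicate 1 above the other libraries. It lies on chr17:39843013-39846341 (GRCm38, plus strand), 616 bases from Gm42418 on chr17:39846958-39848788 (plus strand), and GENCODE M21 places a ribosomal RNA gene, CT010467.1, over all 1831 bases of Gm42418 on the opposite strand. Gm42418 had 7113, 5532, 5712 and 5253 CPM, and its order over the libraries was also led by replicate 1. Of all stretches of 76 bases, the read length, in the exons of Gm42418, 7.06% occurred in no other annotated transcript, against 100% for Gm26917. AY036118, which lies within Gm42418 on the opposite strand, had 0.937 to 2.72 CPM. Ccnb1ip1, a ubiquitin ligase gene known from meiosis, had 3310, 3533, 3131 and 3882 CPM, and its annotated exons overlap Rpph1, the RNA of ribonuclease P, on the same strand. Rpph1 has no entry of its own in the counts analysed here. Rmrp, the RNA of ribonuclease MRP, had 763, 743, 696 and 581 CPM over an exon length of 281 bases, which made it the third gene by length at 2476 ± 290 CPM per kb (SD, n = 4). Whether the counting used strand is not given here, so reads of overlapping genes cannot be told apart.

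Other long noncoding RNAs were nuclear or imprinted transcripts. Malat1, a nuclear speckle RNA, had 6033, 7481, 7494 and 6798 CPM, the lowest value in replicate 1. Meg3 and Rian, maternally expressed RNAs of the Dlk1-Dio3 imprinted locus, averaged 2608 ± 217 CPM and 1158 ± 32.4 CPM. Miat averaged 509 ± 35.8 CPM, and Kcnq1ot1, the imprinted antisense RNA of Kcnq1, 450.1 ± 34.9 CPM (SD, n = 4). Kcnq1 itself, a potassium channel gene named after its value was seen, averaged 1.16 ± 0.31 CPM.

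Of the mitochondrially encoded genes, mt-Co1, a subunit of cytochrome oxidase, had 3783, 3640, 3590 and 3849 CPM in replicates 1 to 4, which is 2405 ± 78.0 CPM per kb. mt-Cytb and mt-Nd1 averaged 1033 and 881 CPM per kb. mt-Co2 and mt-Co3, partners of mt-Co1 in the same enzyme, averaged 12.7 and 15.2 CPM per kb, and mt-Atp6 6.72 CPM per kb. Of their stretches of 76 bases, 0.493% (mt-Co2), 0.141% (mt-Co3) and 0.495% (mt-Atp6) occurred in no other annotated transcript, against 60.6% for mt-Co1 and 100% for mt-Cytb and mt-Nd1. The partners that shared them were annotated pseudogenes such as Gm28661, Gm28437 and Gm10925. The part of this sharing in the low counts was not tested.

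Markers of neurons were abundant in every library. All 15 genes of the neuron list averaged 10 CPM or more, against 32.4% of all genes in the table. That 32.4% is also the share to set beside each later list count at 10 CPM or more. The median of the neuron list was 419 CPM, against 6.69 CPM over all genes with a count. Tubb3, the neuronal beta tubulin, had 1388, 1368, 1367 and 1466 CPM in replicates 1 to 4, and Stmn2, a regulator of microtubules in growth cones, 879, 847, 849 and 851 CPM. They varied by 1.07-fold and 1.04-fold between libraries. Of the 12 genes of newborn neurons, 11 averaged 10 CPM or more, with Dcx at 1727, 1748, 1766 and 1809 CPM and Sox4 at 789, 845, 906 and 885 CPM. Nhlh1, a factor of neurons just leaving the cycle, had 4.47, 2.90, 0.944 and 1.87 CPM, higher in replicates 1 and 2. In bulk tissue fewer cells of a type and less RNA per cell cannot be told apart, here and in what follows.

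The summed level of the glutamatergic list was 2359, 2488, 2739 and 2620 CPM in replicates 1 to 4. Replicates 3 and 4 were the higher ones. Mef2c and Bcl11b, transcription factors of cortical and striatal projection neurons, averaged 512 ± 45.9 CPM and 407 ± 25.3 CPM. Among the transporters that fill vesicles with glutamate, Slc17a6 stood at 26.3, Slc17a7 at 8.40 and Slc17a8 at 1.19 CPM per kb.

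Among GABAergic genes, Gad1, which makes GABA, had 177, 170, 176 and 174 CPM, and its isoform Gad2 averaged 136 ± 7.13 CPM. Slc32a1, the vesicular GABA transporter, averaged 76.2 ± 8.5 CPM. Dlx6, a factor of ventral forebrain precursors, had 7.43, 11.4, 13.8 and 12.9 CPM, lowest in replicate 1. Of 8 genes of interneuron subtypes 6 averaged 10 CPM or more. Per kb of exon the peptide genes Npy and Sst averaged 58.1 ± 4.58 and 47.1 ± 7.15 CPM per kb, Calb2, a calcium-binding protein, 27.6 ± 1.85, and Reln, secreted by Cajal-Retzius cells and interneurons, 22.1 ± 1.31 CPM per kb (SD, n = 4). Pvalb, the calcium-binding protein of fast-spiking interneurons, had 0.242, 1.12, 0.378 and 0.0721 CPM, and Vip 0, 0.330, 0.126 and 0.0721 CPM, both near the floor. All 14 striatal genes averaged 10 CPM or more, with Meis2 at 360.1 ± 18.3 CPM and Foxp1 at 247 ± 26.4 CPM.

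Neurons that use monoamines or acetylcholine were represented at low levels. Of their 15 genes, 12 averaged 1 CPM or more and 2 averaged 10 CPM or more. Nr4a2, a factor of midbrain dopamine neurons that cortical neurons also express, averaged 48.5 ± 2.34 CPM, and Slc18a2, the vesicular monoamine transporter, 17.7 ± 1.59 CPM. Slc6a4, the serotonin transporter, had 10.8, 10.3, 5.73 and 9.52 CPM, lowest in replicate 3. The noradrenergic genes Slc6a2 and Dbh had 1.57 and 0.692 CPM in replicate 3 and up to 7.37 and 2.72 CPM in replicate 1.

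**Figure D2:**
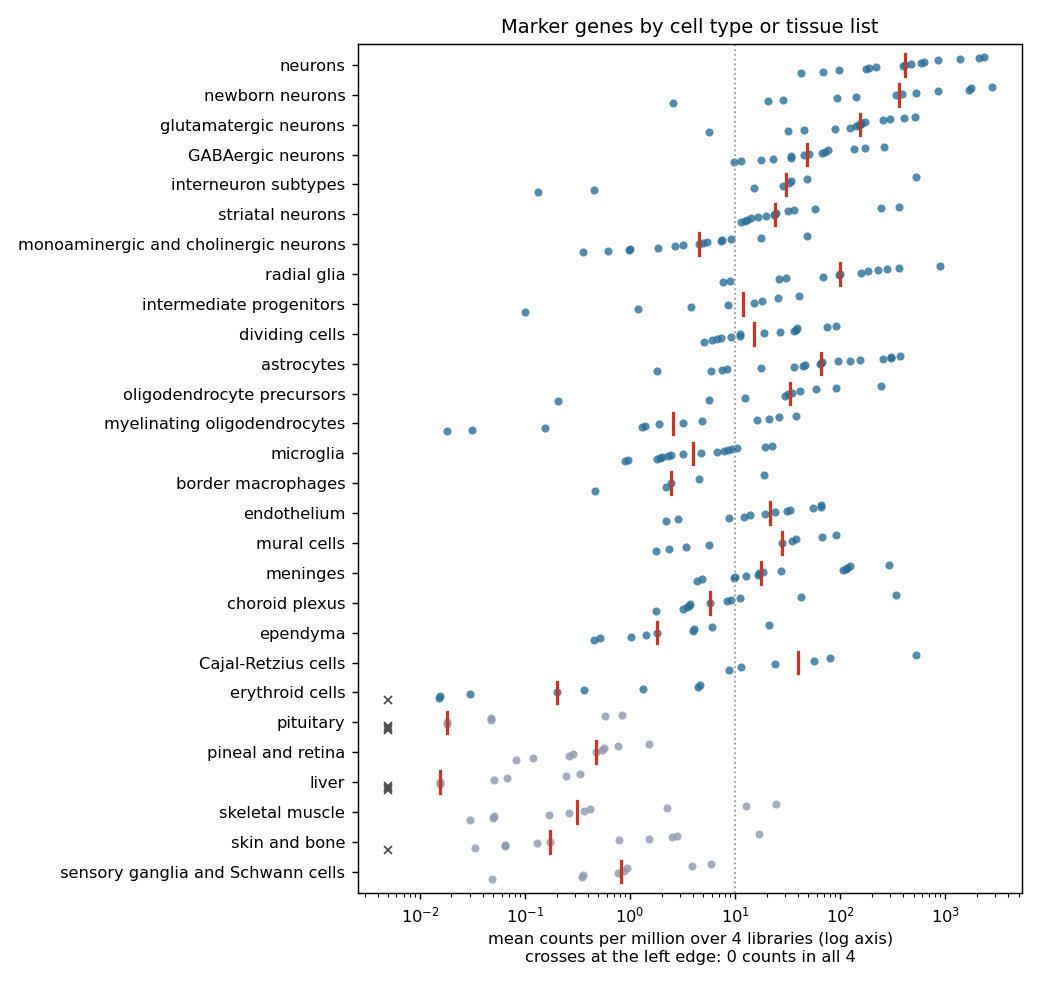
Mean CPM over the 4 control libraries (log axis) of each gene in 22 lists of brain cell type markers (blue) and 6 lists of other tissues (grey); each point is a gene, the red bar is the median of the list, crosses mark genes without counts in all 4 libraries, and the dotted line lies at 10 CPM. The medians run over 419 CPM for neurons, 65.1 CPM for astrocytes, 3.97 CPM for microglia and 2.55 CPM for myelinating oligodendrocytes, down to 0.0157 CPM for liver.

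Radial glia, the stem cells of the embryonic brain, and astrocytes were both present in their transcripts. Ptprz1, a receptor phosphatase of radial glia and oligodendrocyte precursors, averaged 883 ± 19.6 CPM, the matrix protein gene Tnc 364 ± 11.4 CPM, and Fabp7, a fatty acid binding protein of radial glia, had 274, 288, 273 and 274 CPM. Slc1a3, the glial glutamate transporter of radial glia, had 267, 240, 201 and 215 CPM, and Pax6, a factor of cortical and cerebellar progenitors, 38.5, 35.5, 24.0 and 23.6 CPM, both higher in replicates 1 and 2. Of 8 genes of intermediate progenitors 4 averaged 10 CPM or more, with Eomes at 25.7 ± 3.03 CPM and Neurog1 at 6 counts in all. Cells in cycle contributed Mki67 at 92.2 ± 6.52 CPM and Top2a at 75.1 ± 3.58 CPM, and 9 of 14 genes of dividing cells averaged 10 CPM or more.

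The astrocyte list summed to 2189, 2070, 1787 and 1836 CPM in replicates 1 to 4, higher in replicates 1 and 2. Slc1a2, the main glutamate transporter of astrocytes, had 413, 370, 341 and 357 CPM. Sparcl1, a secreted protein that promotes synapse formation, had 374, 322, 266 and 250 CPM, and Aqp4, the water channel of astrocyte endfeet, 61.6, 54.3, 33.2 and 36.8 CPM. Both were higher in each of replicates 1 and 2 than in replicates 3 and 4. The late markers were low. S100b averaged 1.79 ± 0.65 CPM, Agt 8.37 ± 2.27 CPM and Slc7a10 7.44 ± 1.32 CPM, while Gfap, the classical astrocyte filament, averaged 17.6 ± 0.9 CPM.

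Genes of oligodendrocyte precursors were well represented and those of late myelin hardly. Of 10 precursor genes 8 averaged 10 CPM or more. Pdgfra, the receptor that drives precursor division, had 92.3, 90.9, 85.3 and 93.5 CPM, and Olig1, a lineage factor, averaged 59.5 ± 3.75 CPM. Of 12 genes of myelinating cells 4 averaged 10 CPM or more, near the 32.4% of all genes in the table. Mbp, a main protein of myelin, had 42.6, 40.7, 33.9 and 34.1 CPM. Mog, Mobp and Opalin, which appear late in myelin, had 2, 10 and 1 counts over all 4 libraries. Sox10, Bcas1 and Gpr17, of precursors and early oligodendrocytes, are the lineage genes to set beside them. Bcas1 had 8.22, 7.72, 3.71 and 3.17 CPM, Sox10 15.6, 12.9, 9.63 and 12 CPM, and Gpr17 averaged 34.7 ± 6.31 CPM.

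Cells of the blood vessels, the brain's borders and its immune system added smaller shares. The microglia list summed to 109, 106, 102 and 101 CPM in replicates 1 to 4, with Csf1r at 19.1 ± 0.9 CPM and Cx3cr1 at 10.5 ± 0.99 CPM. The list of border macrophages summed to 21.1, 30.3, 30.6 and 32.7 CPM, lowest in replicate 1, and in it Mrc1, a mannose receptor, had 14.6, 20.2, 20.7 and 20.6 CPM. Among endothelial genes Kdr, a receptor of vascular growth factor, averaged 65.6 ± 1.31 CPM and the tight junction gene Cldn5 33.5 ± 1.03 CPM, and among mural genes Pdgfrb averaged 38.4 ± 0.45 CPM. The summed endothelial and mural lists varied by 1.03-fold and 1.04-fold between libraries. In the meningeal list Igf2 averaged 289 ± 10.4 CPM, Col1a2 115 ± 3.85 CPM and Ptgds 123 ± 16.5 CPM. Ttr, the thyroid hormone carrier made in choroid plexus, had 409, 270, 359 and 332 CPM and so differed by 1.51-fold between replicates 1 and 2. Foxj1, a factor of ciliated ependyma, averaged 21.2 ± 0.61 CPM, and Tmem212 and Ccdc153, genes of mature ependyma, 0.513 and 0.454 CPM.

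Lists of blood and neighbouring tissues held genes without counts and, in part, genes above 10 CPM. Hbb-bs, an adult beta globin gene, had 5.01, 4.15, 5.91 and 2.74 CPM. The alpha globins Hba-a1 and Hba-a2, which are near-identical, had 1 count each over all libraries, and the embryonic Hbb-bh1 had none. Of 9 liver genes Alb, Fgb and Serpina1a had no count in all 4 libraries, and the list summed to 0.566 to 0.967 CPM. Of 9 pituitary genes Prl, Lhb and Fshb had no count. The skeletal muscle list summed to 40.7, 37.2, 44.9 and 41.2 CPM in replicates 1 to 4, and 2 of its 10 genes averaged 10 CPM or more, while the muscle genes Ckm, Myog and Tnni2 had 2, 3 and 3 counts. The list of skin and bone summed to 27.1, 24.8, 22.5 and 26 CPM with 1 of 11 genes at 10 CPM or more, while the keratins Krt14, Krt5 and Krt15 had 4, 2 and 0 counts. Peripheral neurons and Schwann cells summed to 17.3, 15.1, 10.2 and 10.1 CPM. In that list Prph, a filament of peripheral and hindbrain motor neurons, had 10.7, 8.51, 1.01 and 3.53 CPM.

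Among the lists, the libraries differed by the largest ratios in markers of the posterior end of the brain. The hindbrain list summed to 87.3, 59.7, 1.57 and 4.40 CPM in replicates 1 to 4, and the posterior Hox list to 48.0, 16.2, 0.0629 and 0.288 CPM. In both lists each of replicates 1 and 2 lay above both of replicates 3 and 4. Slc6a5, the glycine transporter of inhibitory neurons in the hindbrain and spinal cord, had 25.8, 21.7, 1.07 and 1.8 CPM. Hoxb3 had 14.6, 7.65, 0 and 0.216 CPM, Hoxd3 8.04, 6.73, 0 and 0.0721 CPM, and Hoxc4 6.53, 2.70, 0 and 0 CPM. Hox genes are laid out along the body axis in the order of their position in the cluster, and the rhombomeres of the hindbrain express the lower numbers. Hoxb5 had 17.5, 7.39, 0.0629 and 0 CPM and Hoxa5 16.1, 5.94, 0 and 0 CPM. Hoxb8 had 8.04 CPM in replicate 1 and 0.264 CPM in replicate 2, a larger ratio than that of Hoxb5 or Hoxa5 between the same libraries, and Hoxb8 had no count in replicates 3 and 4. Of the 27 posterior Hox genes 16 had no count in all 4 libraries, among them Hoxc8 and all members of groups 9 to 12 in the list. Without replicates 1 and 2 the mean sums were 2.99 CPM for hindbrain and 0.176 CPM for posterior Hox genes, and without replicates 3 and 4 they were 73.5 and 32.1 CPM. What set these libraries apart was not tested.

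**Figure D3:**
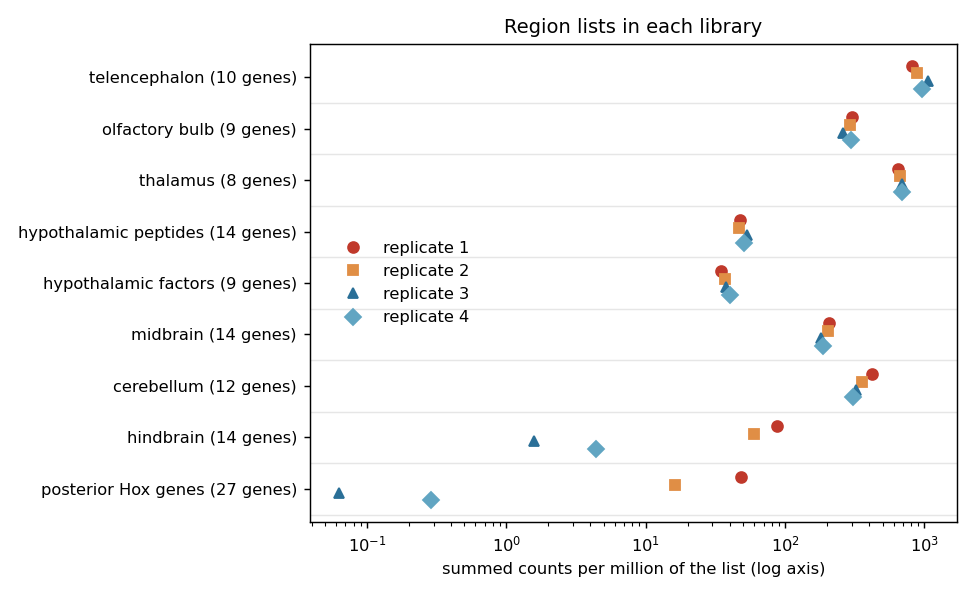
Summed CPM (log axis) of 9 lists of regional marker genes, with 1 symbol for each of the 4 control libraries. The hindbrain and posterior Hox lists spread over more than 1 unit of the log axis. In them replicates 1 and 2 lay at 16.2 to 87.3 CPM and replicates 3 and 4 at 0.0629 to 4.40 CPM. The sums of the other 7 lists differed by 1.08-fold (thalamus) to 1.36-fold (cerebellum) between libraries.

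The sum of the cerebellar list was also graded, less steeply than the hindbrain sum. Some of its genes fell more steeply than the sum. The list summed to 422, 356, 322 and 310 CPM, and in it Zic1, a factor of granule cells and of meninges, had 234, 203, 198 and 189 CPM. Barhl1, of granule cell precursors, had 27.2, 19.9, 9.44 and 11.8 CPM. Pax2 and Skor2, of cerebellar interneurons and Purkinje cells, had 14.3 and 5.50 CPM in replicate 1, 9.17 and 1.58 CPM in replicate 2, and 0.189 to 0.793 CPM in replicates 3 and 4. Atoh1 and Pcp2 had at most 0.0721 CPM in replicates 3 and 4, against 0.528 to 1.81 CPM in replicates 1 and 2. Gabra6, a receptor subunit of mature granule cells, had 2 counts in all.

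The order differed between lists of the forebrain and midbrain. The telencephalon list summed to 809.8, 889.7, 1059.9 and 960.01 CPM, higher in replicates 3 and 4. All its 10 genes averaged 10 CPM or more. The thalamus list summed to 644, 666, 695 and 687 CPM, with Tcf7l2 at 268 ± 15.8 CPM. The midbrain list summed to 207, 204, 180.1 and 186 CPM, and in it En2 and En1, factors of the boundary between midbrain and hindbrain, had 14.6, 11.3, 4.84 and 7.79 CPM and 12.3, 9.69, 6.04 and 7.14 CPM. The olfactory bulb list summed to 299.97, 290.2, 259.7 and 297.6 CPM, lowest in replicate 3, and in it Cdhr1, a cadherin of the bulb's output neurons, had 40.1, 37.9, 20.9 and 43.5 CPM, with replicate 3 apart, and Tbx21, of the same neurons, had 1.03, 0.659, 0.440 and 1.15 CPM, in the same order at its low end. Of 14 hypothalamic peptide genes 1 averaged 10 CPM or more. Avp, vasopressin, had 4.05, 4.42, 5.66 and 5.98 CPM, while Oxt, oxytocin, averaged 0.216 CPM and Kiss1 had 1 count.

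State-dependent genes were recorded as well. Among immediate early genes, which rise within minutes of stimulation, Jund averaged 123 ± 4.97 CPM and Jun 45.6 ± 3.01 CPM, while Fos had 4.17, 1.91, 1.38 and 1.73 CPM and Fosb 2.05, 0.462, 0.503 and 0.360 CPM, both highest in replicate 1. The summed circadian list varied by 1.02-fold between libraries, with Clock at 95.5 ± 6.78 CPM and Per1 at 46.2 ± 0.72 CPM. The inducible heat shock genes Hspa1a and Hspa1b averaged 1.12 and 0.776 CPM per kb, against 204 CPM per kb for Hspa8, their constitutive relative, and 325 CPM per kb for the constitutive Hsp90ab1. Glycolytic genes summed to 3629, 3499, 3294 and 3295 CPM, higher in replicates 1 and 2, with Gapdh at 105, Pkm at 89.1 and Pfkp at 45.7 CPM per kb.

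Paralog balance was described in 57 families of 205 genes as the share of each member in the summed CPM per kb. In 43 families 1 member held more than 50 percent, and in 7 families more than 90 percent. The same member led in all 4 libraries in 53 families, and the median SD of the leading share between libraries was 0.706 percentage points. Whether such shares can be read depends on how well the reads tell the members apart. Across the 205 genes a median of 99.9% of stretches of 76 bases occurred in no other annotated transcript, but 3 genes lay under 50 percent, Tuba1a at 29.8%, Tuba1b at 30.1% and Sox4 at 46.2%. The tubulins show how little can separate near copies. The last 75 coding bases of Tubb2a and Tubb2b, read from GRCm38, differ in 3 bases. Capitals mark the bases that differ, and the sequences run 5′ to 3′ on the coding strand, ending in the stop codon.
Tubb2a, chr13:34074468-34074542, minus strand: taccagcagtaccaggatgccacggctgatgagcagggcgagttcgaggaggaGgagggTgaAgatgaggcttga
Tubb2b, chr13:34127471-34127545, minus strand: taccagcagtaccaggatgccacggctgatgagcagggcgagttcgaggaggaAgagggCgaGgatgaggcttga
Over the whole coding sequence Tuba1a and Tuba1b differ in 23 of 1356 bases (98.3% identity) and share a run of 281 bases, while Tubb2a and Tubb2b differ in 47 of 1338 bases (96.5% identity) and share a run of 551 bases. Reads inside such runs fit both genes equally.

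Tuba1a held 94.0%, 94.0%, 94.7% and 94.5% of the alpha tubulins in replicates 1 to 4, a mean of 94.3% ± 0.35 (SD, n = 4), against 3.28% ± 0.25 for Tuba1b. With the number of unique stretches in place of exon length, an alternative chosen after the data were seen, Tuba1a held 95.5% ± 0.28. Tuba8, Tuba3b and Tuba3a, alpha tubulins of other tissues, were each below 1 percent, as was Tuba4a. The beta tubulins were shared out. Tubb2b held 30.2% ± 1.0, Tubb3 27.6% ± 0.87, Tubb5 23.3% ± 0.55 and Tubb2a 13.4% ± 0.56 (SD, n = 4), and in replicate 4 Tubb3, at 28.8%, stood above Tubb2b, at 28.7%. Without division by length Tubb5 was the leading beta tubulin, at 33.4%. With unique stretches in place of length Tubb2b held 35.1%, Tubb3 22.0%, Tubb2a 19.7% and Tubb5 18.2%, so Tubb2a stood above Tubb5. Actb held 81.0% ± 0.54 of the actins and Actg1, the other cytoplasmic actin, 18.8% ± 0.56, while the 4 muscle actins Acta1, Acta2, Actc1 and Actg2 were each below 1 percent. With unique stretches Actb held 74.7% and Actg1 25.1%. Among stathmins, which bind free tubulin, Stmn1 held 37.3% ± 1.4 and Stmn3 33.5% ± 1.5, and they were level in replicate 1, at 35.3% and 35.4%, while by counts alone Stmn2 led, at 42.2%. Map1b held 43.2% ± 0.56 of 5 microtubule-associated genes and Mapt 32.2% ± 0.67. Dcx held 59.2% ± 0.48 of the doublecortins, Kif5c 57.6% ± 0.80 of the kinesin-1 heavy chains, which carry cargo along axons, and Cfl1 67.0% ± 1.0 of the cofilins, which sever actin filaments.

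The neuronal intermediate filaments had the widest balance of the 57 families. Ina, alpha-internexin, the filament of young neurons, held 59.5%, 59.9%, 70.0% and 68.1% in replicates 1 to 4, and Nefl, the light neurofilament chain, 31.0%, 30.6%, 24.7% and 26.4%. Replicates 1 and 2 did not overlap replicates 3 and 4 for either gene. In CPM the same held for 42.6 percent of all 10469 genes of 10 CPM or more, so that order alone does not set these genes apart. Nefm and Nefh, the medium and heavy chains of mature large axons, averaged 5.16% ± 1.2 and 1.07% ± 0.44. In CPM, Nefm had 93.8, 86.1, 48.9 and 47.3, Nefh 13.3, 15.4, 5.79 and 5.55, and Nefl 274, 252, 162 and 184. These genes were higher in the libraries with more hindbrain transcripts, and the part of those transcripts in the difference was not tested.

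Several receptor families were led by members known from immature circuits. Grin2b, the NMDA receptor subunit of young synapses, held 75.7%, 77.6%, 79.8% and 78.1% of the GluN2 family, Grin2d 18.0% ± 1.4, Grin2a, which gains ground after birth, 3.41% ± 0.23, and Grin2c 0.742% ± 0.11 (SD, n = 4). Grin3a held 99.6% ± 0.23 of the GluN3 pair, with Grin3b below 1 percent. Gria2, the subunit that keeps calcium out of AMPA receptors, held 38.7% ± 1.8 and Gria1 35% ± 0.67. Gabra5 and Gabra3, at 32.2% ± 1.5 and 31.9% ± 1.6, shared the lead of the GABA-A alpha subunits, and which of them led differed between libraries. By counts alone neither led, and Gabra5 held 19.8%. Gabra6 was below 1 percent. Glra2, the glycine receptor subunit of the embryo, held 87.0%, 87.7%, 91.5% and 92.4%. Glra1, the adult subunit of brainstem and spinal cord, held 7.17%, 6.50%, 2.65% and 2.03%, higher in replicates 1 and 2.

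The chloride transporters that set the direction of the GABA response stood at 31.6 ± 2.58 CPM per kb for Slc12a5 (KCC2, which exports chloride) and 8.38 ± 0.50 CPM per kb for Slc12a2 (NKCC1, which imports it). Slc12a5 thus held 81.5%, 79.5%, 75.9% and 78.9% of the pair in replicates 1 to 4. Slc12a2 is also expressed outside neurons, so the share in neurons cannot be read from bulk tissue. Slc17a6 held 73.3% ± 1.7 and Slc17a7, the adult cortical form, 23.4% ± 1.6 of the vesicular glutamate transporters. Atp1b1 held 63.9% ± 0.70 of the beta subunits of the sodium pump. Among sodium channels Scn2a held 40.2% ± 0.71 and Scn3a, a form of the developing brain, 36.8% ± 0.49. Among 8 calcium channel alpha-1 subunits Cacna1b led at 23.2%, 23.0%, 22.1% and 20.9% in replicates 1 to 4, but Cacna1e led at 21.4% with the length of the longest transcript and at 30.1% by counts alone.

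**Figure D4:**
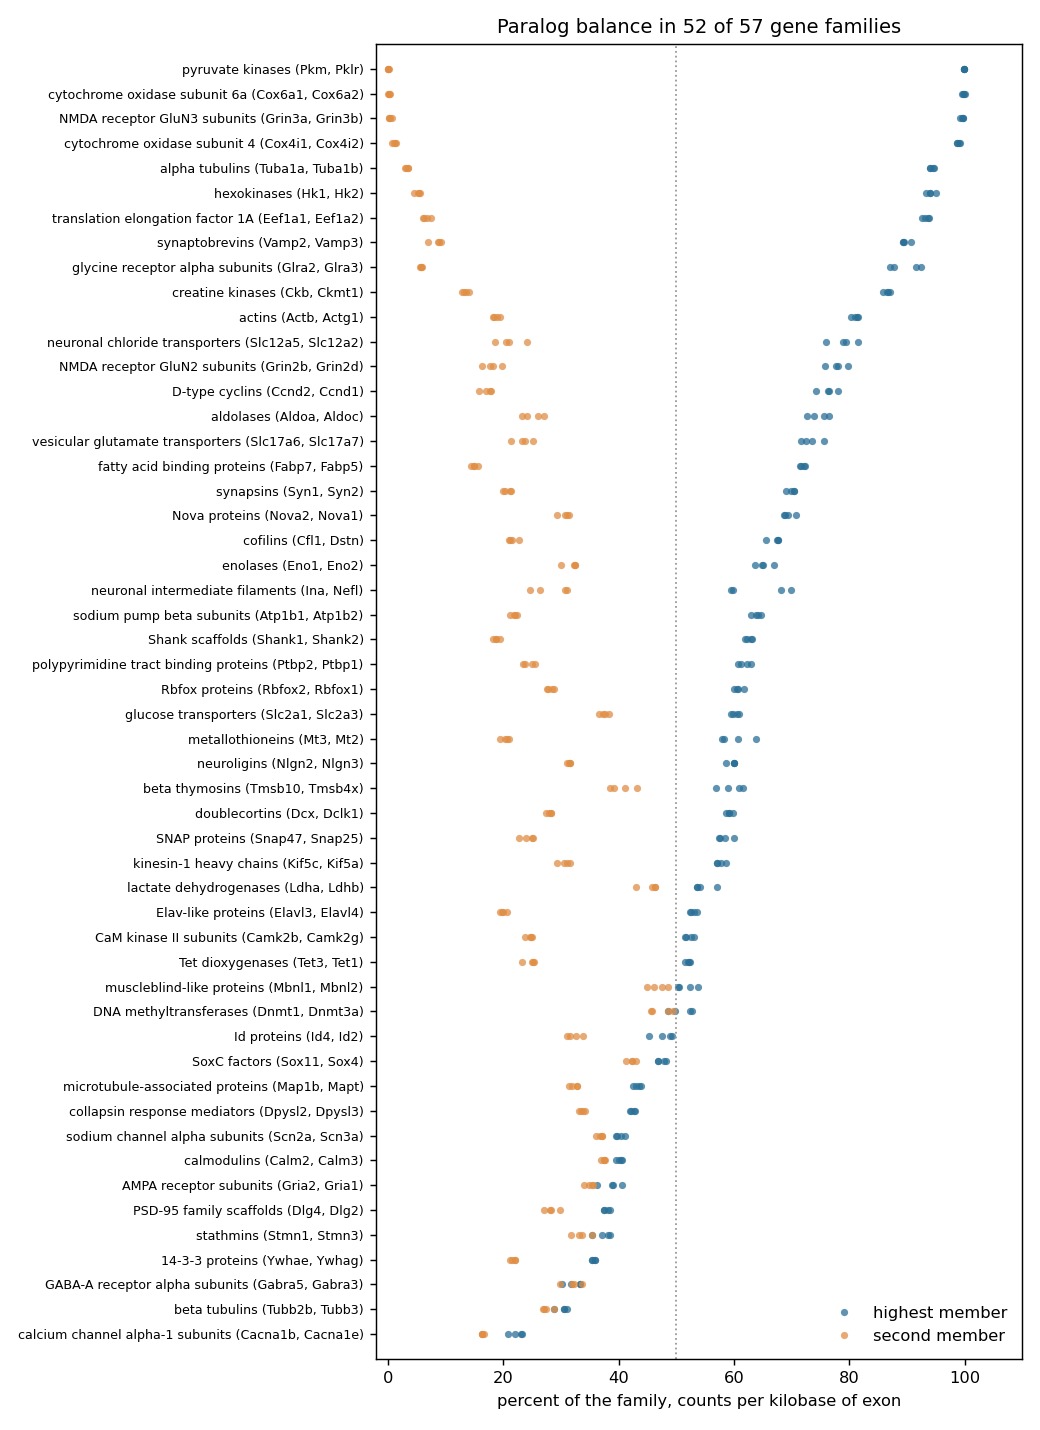
Share of the highest member (blue) and of the second member (orange) in each of 52 of the 57 paralog families, as percent of the summed counts per kilobase of exon, with 1 point for each of the 4 control libraries and families sorted by the share of the highest member. In 39 families the mean blue share lies right of the dotted line at 50 percent, and in the GABA-A alpha, beta tubulin, stathmin and DNA methyltransferase families the order of blue and orange changed between libraries.

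Synaptic families included an order that depends on length. Snap47 held 58.3% ± 1.2 and Snap25, the membrane fusion protein of the adult synapse, 24.2% ± 1.1 of 4 SNAP genes per kb, but by counts alone Snap25 led, at 43.0%. Vamp2, the synaptobrevin of forebrain vesicles, held 89.7% ± 0.62, Syn1 69.9% ± 0.62 of the synapsins and Shank1 62.5% ± 0.59 of the Shank scaffolds. Nlgn2, the neuroligin of inhibitory synapses, held 59.6% ± 0.67, and Nlgn3 31.4% ± 0.30. Nrxn2 held 45.4% ± 1.2 of the neurexins, against 39.8% by counts alone. Dlg4 (PSD-95) held 37.9% ± 0.52 and Dlg2 28.3% ± 1.2. Camk2b held 52.2% ± 0.80 of CaM kinase II, Camk2g 24.5% ± 0.53 and Camk2a, the dominant subunit of the adult forebrain, 15.4% ± 0.70.

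The calmodulins show the opposite case to the tubulins. Calm2 and Calm3 encode the same protein, yet their bases have diverged, so reads can tell them apart. They differ in 78 of 450 coding bases (82.7% identity) and share no run longer than 17 bases. The last 75 coding bases are shown, with the 13 bases that differ in capitals. Each span includes an intron, which is left out of the sequence.
Calm2, chr17:87434027-87435121, minus strand: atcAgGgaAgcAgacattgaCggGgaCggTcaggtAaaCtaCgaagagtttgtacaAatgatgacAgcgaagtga
Calm3, chr7:16916948-16917120, minus strand: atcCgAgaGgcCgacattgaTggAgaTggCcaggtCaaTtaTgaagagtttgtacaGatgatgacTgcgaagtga
Calm2 held 40.2% ± 0.41 and Calm3 37.4% ± 0.31 of the calmodulins per kb of exon (SD, n = 4), and Calm2 held 23.1% by counts alone.

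Each of the 10 metabolic families had a member above 50 percent. Pkm held 99.9% ± 0.047 of pyruvate kinase, Hk1 94.1% ± 0.68 of the hexokinases, Cox4i1 98.9% ± 0.26 and Cox6a1 99.8% ± 0.17 of their cytochrome oxidase pairs, and Ckb, the brain form, 86.5% ± 0.51 of the creatine kinases, of which the muscle forms Ckm and Ckmt2 had 2 and 0 counts. Other families were nearer to balance. Ldha and Ldhb held 54.6% ± 1.6 and 45.4% ± 1.6 of lactate dehydrogenase, and Eno1 65.1% ± 1.4 against 31.8% ± 1.2 for the neuronal enolase Eno2. Aldoa held 74.6% ± 1.7 and the astrocytic Aldoc 25.2% ± 1.8. Fabp7 held 71.8% ± 0.41 of the fatty acid binding proteins and Mt3, the metallothionein of the brain, 60.2% ± 2.7.

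Among RNA-binding proteins Ptbp2, the neuronal splicing repressor, held 61.8% ± 0.98 and Ptbp1, the form of progenitors and glia, 24.4% ± 1.0. Elavl3 held 52.9% ± 0.53 and Elavl4 19.9% ± 0.52, Rbfox2 60.7% ± 0.70 and Rbfox1 28.1% ± 0.56, and Nova2 69.4% ± 0.97 and Nova1 30.6% ± 0.97. Eef1a1 held 93.3% ± 0.58 and Eef1a2, which replaces it in mature neurons, 6.70% ± 0.58. In the nucleus Ccnd2 held 76.2% ± 1.5 of the D-type cyclins, Tet3 52.0% ± 0.38 of the Tet dioxygenases and Id4 47.8% ± 1.8 of the Id proteins. Dnmt1, which maintains DNA methylation, and Dnmt3a, which adds it, held 50.8% ± 2.0 and 47.4% ± 1.9, with Dnmt3a ahead in replicate 1. Dnmt3a led at 55.2% with the length of the longest transcript and at 67.2% by counts alone. Sox11 held 47.5% ± 0.70 and Sox4 42.3% ± 0.69 of the SoxC factors, but with unique stretches in place of length Sox4 held 61.5% ± 0.67, so that order rests on how shared reads were counted. Ywhae, a 14-3-3 adaptor, held 35.6% ± 0.28 of its 7 genes, against 24.9% and no lead by counts alone.

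Replicate spread was small for most genes. Of the 10469 genes of 10 CPM or more, 109 (1.04 percent) differed by at least 1.5-fold between their highest and lowest library, and 13 (0.124 percent) by at least 2-fold. The share past 1.5-fold was 40.3% at 1 to 10 CPM, where counting error is large, 1.34% at 10 to 100 CPM and 0.12% at 100 to 1000 CPM, and 0 of the 50 genes above 1000 CPM passed it. The common biological coefficient of variation, the spread beyond counting error estimated by edgeR, was 5.21%. It was 3.80% within replicates 3 and 4 and 3.88% within replicates 1 and 2. Between single libraries, 10 genes were past 1.5-fold for replicates 3 and 4 and 18 for replicates 1 and 2, against 24 to 68 for the 4 pairs that mix the letters. Without replicate 1 the count past 1.5-fold was 49, and without replicate 3 it was 70.

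The order of the libraries followed the sample letters in part. In 73 of the 109 genes (67.0%) replicates 1 and 2 lay both above (52 genes) or both below (21 genes) replicates 3 and 4, and the same held for 42.6 percent of all 10469 genes. Among the 480 distinct genes of the cell, region, tissue and process lists in the table, 235 averaged 10 CPM or more and 18 of them (7.66%) were past 1.5-fold. The lists were written with earlier results of these data known, so that share is a description.

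**Figure D5:**
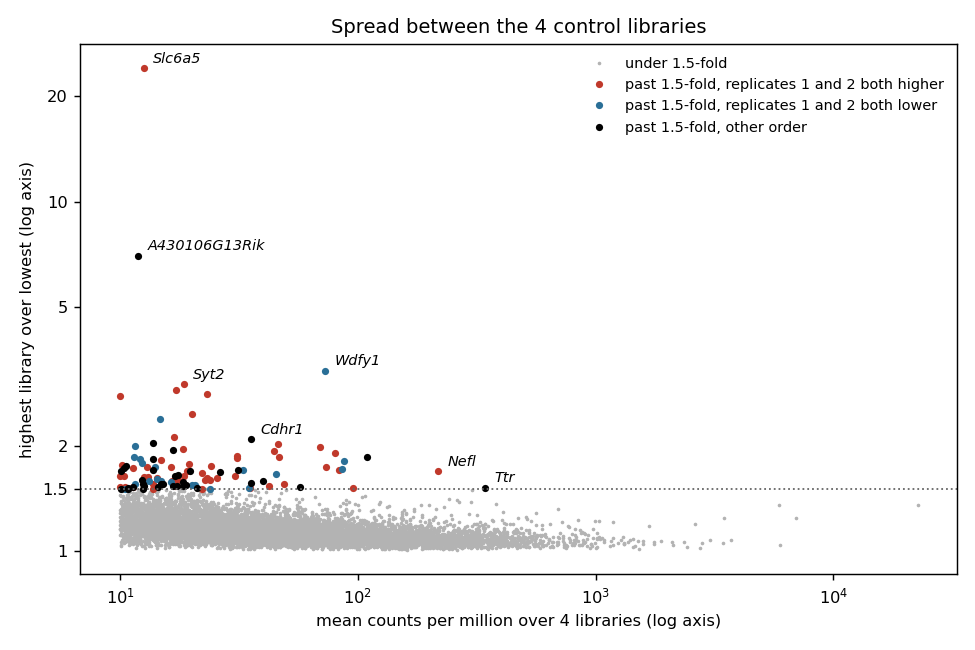
Highest library over lowest library (log axis) against mean CPM (log axis) for 10469 genes of 10 CPM or more in the 4 control libraries; grey points lie under 1.5-fold (dotted line), and coloured points are the 109 genes past it, split by whether replicates 1 and 2 both lay above (red), both below (blue) or neither (black). Red points are the most frequent, 52 of 109, and the highest of them is Slc6a5.

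After Slc6a5, the widest genes were of several kinds. A430106G13Rik, a long noncoding RNA, had 2.42, 14.9, 16.9 and 13.5 CPM, low in replicate 1 alone. Wdfy1, an endosomal adaptor, had 30.2, 65.0, 97.6 and 99 CPM, with replicates 1 and 2 below replicates 3 and 4. Syt2, the calcium sensor of fast hindbrain and spinal synapses, had 27.0, 25.3, 9 and 13 CPM, and Car8, a Purkinje cell protein, 31.6, 21.4, 12.8 and 14.3 CPM. Mab21l2 had 34.6, 30.0, 12.3 and 15.9 CPM, Nxph4, a neurexophilin, 23.0, 19.6, 10.9 and 13.6 CPM, and Cyp26b1, an enzyme that degrades retinoic acid, 64, 53.9, 31.7 and 34.4 CPM. Meis1, a partner of Hox proteins, had 59.0, 55.6, 30.6 and 31.6 CPM, and Ebf3, of Cajal-Retzius and hindbrain neurons, 108, 86.4, 56.7 and 70.7 CPM. In these 7 genes from Syt2 to Ebf3 replicates 1 and 2 both lay above replicates 3 and 4. Rassf4 had 24.0, 19.3, 12.3 and 17.7 CPM in the same order, and Ndst4 33.5, 38.5, 20.6 and 31.5 CPM. The noncoding transcripts 3110039M20Rik and 1700048O20Rik had 8.16, 13.8, 19.4 and 17.6 CPM and 7.67, 8.90, 14.2 and 15.3 CPM, in the opposite order. Gm38085 and Gm37814, annotated within introns of other genes, were highest in replicate 3, at 20.1 and 22.3 CPM, against 9.91 to 12.5 CPM and 11.5 to 17.4 CPM elsewhere.

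At the other end, 10 genes had the smallest coefficient of variation estimated by edgeR among those of 100 CPM or more. They kept within 1.02-fold to 1.03-fold of themselves. They were not the genes of smallest observed ratio, since Eif4g2 differed by 1.01-fold. Gng2, a G protein gamma subunit, had 729, 733, 747 and 737 CPM in replicates 1 to 4, Srgap3, a regulator of neurite branching, 504, 505, 508 and 515 CPM, and Kifap3, a kinesin adaptor, 313, 314, 319 and 316 CPM. Trim67, Ttc3, Fam168b, Neo1, Nav1, Spag9 and Spin1 made up the rest of the 10. For these 10 genes edgeR estimated biological coefficients of variation of 3.39% to 3.41%. It draws the estimate of each gene toward a trend over all genes, so these values are not the spread of each gene alone. The observed spread of Kifap3, for instance, was 316 ± 2.66 CPM (SD, n = 4).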

How the data were processed

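The authors deposited whole-number read counts per gene, with a column for each library and no scaling. The submitters' processing notes name HTSeq 2.0.2, HISAT2 2.2.1, cutadapt 3.4 and bcl2fastq 2.20, and as the genome mm10. Stranded mRNA libraries were read from 1 end over 76 bases, per the labels, which name more than 1 kit. Neither the gene annotation the authors counted on nor the use of strand is stated in these sources.

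The 4 control columns were taken by their names and divided by the column totals to CPM. Gene lengths, as the union of exons, biotypes and positions came from GENCODE M21 on GRCm38, which held 99.8% of the 32285 identifiers. The symbol Aldoa stands on more than 1 row, and the row with more counts was used. Uniqueness was computed by comparing each stretch of 76 bases of a gene's transcripts with all M21 transcripts. Coding sequences were read from the same release. The dispersion was estimated with edgeR 4.0.16 in R 4.3.3, with TMM and an intercept-only design, over genes of 1 CPM or more, and that step was tested on simulated data. DESeq2 1.42.0 gave size factors as an alternative. The 4 libraries are 1 group, so no test was made.

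The members and the gene lists were chosen with earlier results of these data known. The text names the 25 genes highest in CPM, the 15 highest per kb and the 8 highest long noncoding RNAs. In each list it names the 4 highest genes and those without counts or past 1.5-fold. In each family it names the leading and second member and those below 1 percent. This rule also takes the 20 genes of widest spread and the 10 of smallest estimated coefficient of variation. AY036118, Camk2a, Gfap, Glra1, Gpr17, Grin2a, Kcnq1, Krt14, Slc17a8, Tubb2a, mt-Atp6, mt-Co2 and mt-Co3 fall outside it and were chosen after their values were seen. Some genes and families are not reported here.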

Additional observations from a re-analysis of the deposited data

Results flagged for a closer look

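Values given per library numbered 364, from 261 genes and 103 list sums, leading paralog shares and library summaries. In 25 of them 1 library stood apart from the other 3. There the gap, as a part of the whole range, exceeded Dixon's critical value. Of these, 9 are genes with counts in 1 library only, where the gap is the whole range by construction. Of the other 355 values 16 were apart (4.51%), and among them Cfl1 and Nlgn2 each enter both as a gene and as a share. Some genes were named for their spread between these libraries, so that share is a description and is not set against chance. Replicate 1 was the library apart in 9 of all 25, replicate 2 in 6, replicate 3 in 6 and replicate 4 in 4. The gap is measured against the range, so a small difference can be flagged. Neo1, for instance, differed by 1.03-fold between its highest and lowest library.

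Of genes with appreciable counts, replicate 1 was apart for Hoxb8, at 8.04 CPM, Fosb, at 2.05 CPM, and Stmn2, at 879 CPM, each above the rest, and for Mrc1, at 14.6 CPM, Neo1, at 389 CPM, and Fam168b, at 419 CPM, each below the rest. Replicate 2 was apart for Fabp7, at 288 CPM, and for the summed pituitary list, at 2.18 CPM, both above the rest. Replicate 3 was apart for Csf1r, at 17.7 CPM, Nlgn2, at 380.4 CPM, and the share of Nlgn2 in the neuroligins, at 58.6%, each below the rest, and for Acta1, at 2.77 CPM, above it. Replicate 4 was apart for Tubb2b, at 1793 CPM, Cfl1, at 662 CPM, and the share of Cfl1 in the cofilins, at 65.5%, each below the rest.

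The remaining values rest on a few counts. They are Rax, at 0 CPM in replicate 1 alone, Ckm, at 0.121 CPM, Hba-a1, at 0.0604 CPM, Hba-a2, at 0.0629 CPM, Actc1, at 0.132 CPM, Tnni2, at 0.198 CPM, Kiss1 and Tuba3b, each at 0.0659 CPM, Gabra6, at 0.126 CPM, and Opalin, at 0.0721 CPM, and apart from Rax each was at 0 in the other 3 libraries.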

How the results depend on the processing

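No paired analysis was possible because the 4 control libraries are 1 group. The number of detected genes stayed within 1.5 times its value under every alternative, with 15674 genes at 10 counts or more. The share of the 100 most abundant genes was 13.1% among protein-coding genes, 22.9% per kb and 13.7% without Gm26917, Gm42418 and AY036118, a choice made after seeing the data, and 15.8% to 16.1% with 1 replicate left out. The count of genes past 1.5-fold was 1877 at a mean of 1 CPM or more, 12 at 50 CPM or more, and 13 at 2-fold, which follow from the changed limit. It was 1420 with no filter and 1 CPM added, changes made together whose parts were not separated. With 1 replicate left out it was 49 (without replicate 1) to 87 genes. It was 10 without replicates 1 and 2 and 20 without replicates 3 and 4, with the minimum of 10 CPM taken over the libraries kept. The biological coefficient of variation was 3.64% as the median of a moment estimate, 4.56% (without replicate 1) to 5.83% (without replicate 2) with 1 replicate left out, 3.80% without replicates 1 and 2, and 3.88% without replicates 3 and 4. The cause of these differences in the coefficient was not tested.

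The number of families with 1 member above 50 percent was 42 to 44 in all alternatives run. The leading member changed in 11 of 57 families without length, in 2 with the length of the longest transcript and in 1 with unique stretches of 76 bases, a measure chosen after seeing the data. The GABA-A alpha family also turned without replicate 1, without replicate 4 and without replicates 3 and 4. Of the leading shares, 45, 47 and 28 of 57 moved by more than 1 SD under these 3 measures. The 43 list sums tested moved by less than 1 SD under TMM and DESeq2 size factors. With libraries left out, the sums that moved by over 1.5 times were those of hindbrain and posterior Hox genes, 2 of 43, at 21.9 and 5.50 CPM without replicate 1, at 2.99 and 0.176 CPM without replicates 1 and 2, and at 73.5 and 32.1 CPM without replicates 3 and 4, against 38.2 and 16.1 CPM over all 4 libraries. For genes below 10 CPM counting error takes a large part of the spread.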

Other observations

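Further lists gave values that enter no comparison above. The list of pineal and retina genes summed to 2.05, 6.00, 4.66 and 5.77 CPM in replicates 1 to 4, lowest in replicate 1, and in it Tph1, which makes serotonin in the pineal gland, had 0.483, 2.51, 1.26 and 1.8 CPM. The Cajal-Retzius list summed to 766, 718, 619 and 714 CPM, lowest in replicate 3, with Lhx1 at 31.2, 26.2, 17.9 and 21 CPM. The hypothalamic factors summed to 34.6, 37.3, 37.6 and 40.4 CPM, and in that list Otp had 12, 14.9, 9.37 and 13 CPM and Rax 0, 0.528, 0.503 and 0.577 CPM. Among glucocorticoid targets Ddit4 averaged 73.9 ± 8.06 CPM, Fkbp5 56.4 ± 3.08 CPM and Sgk1 35.7 ± 0.51 CPM (SD, n = 4), and Pdk4 had 2.60, 3.23, 4.47 and 3.96 CPM.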
